A study of Mus musculus with 6 samples.

Results

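Somatostatin (Sst) interneurons were followed in a study of the mouse hippocampus by single-nucleus RNA sequencing. They were chosen by measured counts, among nuclei with at least 500 genes and mitochondrial UMIs of 5% or less. A nucleus counted as an Sst interneuron when it held at least 3 unique molecular identifiers (UMIs, 1 per captured transcript) of Gad1 and Gad2 together, at least 1 of Sst, none of Vip, at most 1 of Lamp5 and at most 2 of Adarb2. By this rule 414 of the 27766 nuclei kept (1.49%), or 26.7% of the 1550 nuclei with at least 3 Gad1 and Gad2 UMIs, were Sst nuclei.

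The study asked how CI-994, an inhibitor of class I histone deacetylases labelled HDACi, changes transcription in hippocampal cells after contextual fear conditioning (CFC). Male C57BL/6 mice aged 12 weeks were injected into the peritoneum with CI-994 at 30 mg/kg, or with vehicle (Veh), 1 h before they were placed in a chamber, and were killed 1 h after that exposure. CFC mice received 2 foot shocks of 0.2 mA in the chamber, and Context mice saw the chamber without a shock. Each library pooled the hippocampal tissue, labelled as dentate gyrus, of 5 mice. The mice carried no transgene that the labels name, and actinomycin D, which blocks transcription, was in the buffers of the nuclear preparation. There were 2 HDACi-CFC, 2 Veh-CFC, 1 HDACi-Context and 1 Veh-Context libraries. For the last of these, the title and the treatment field read vehicle but the description reads HDACi, so it is called the library labelled Veh-Context below.

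Somatostatin interneurons release GABA, mainly onto the distal dendrites of principal neurons, and use the peptide somatostatin as a cotransmitter. In the hippocampus they include the oriens-lacunosum moleculare (O-LM) cells and the dentate cells that project along the perforant path. They arise from the medial ganglionic eminence, whose transcription factor Lhx6 they keep, whereas cells with Vip or Adarb2 mostly arise from the caudal ganglionic eminence. Histone deacetylases remove acetyl groups from histones, and their inhibitors raise histone acetylation.

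The numbers of Sst nuclei were 55 and 67 in the HDACi-CFC libraries, 48 and 64 in the Veh-CFC libraries, 102 in HDACi-Context and 78 in the library labelled Veh-Context. Library totals ran between 24508202 and 45570814 UMIs, and the Sst nuclei of a library held between 451519 and 1255531 UMIs together. The median Sst nucleus held 7949 and 10175 UMIs in HDACi-CFC, 9136.5 and 10374.5 in Veh-CFC, 10857 in HDACi-Context and 11142.5 in the library labelled Veh-Context. The median number of genes detected in a nucleus was 2908 and 3284 in HDACi-CFC and 3771 and 4073 in Veh-CFC, so HDACi nuclei showed fewer genes than Veh nuclei of like depth. The same held in Context, with 3586 genes in HDACi-Context and 4253.5 in the library labelled Veh-Context. Of 27692 barcode sequences, 74 were found in more than 1 library.

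The choice rested on few molecules in many nuclei. Sst was at 1 UMI in 87 of the 414 nuclei and at 3 or more in 290, and the Gad1 and Gad2 sum was exactly 3 in 62. Just outside the rule lay 103 nuclei that met every other condition with a Gad1 and Gad2 sum of 2, and 306 that met every other condition with no Sst UMI. Sst RNA was also found where the gene should be silent: 18.0% of 2715 oligodendrocyte nuclei held an Sst UMI, from 10.3% to 26.5% by library. The comparisons were also run on the 290 nuclei with at least 3 Sst UMIs.

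Promoters of 3 genes are shown because the account below turns on them: Sst names the class, Crhbp set it furthest apart from other interneurons after Sst itself, and Syn2 was raised by CI-994 with the smallest adjusted p of the 10 largest increases. Each window runs from 250 bases before to 50 bases after the start of the RefSeq transcript, 5′ to 3′ along the gene, on GRCm38.p6. Capitals mark matches on either strand to the cyclic AMP response element TGACGTCA, the GC box GGGCGG or the TATA box TATAAA. The Sst window is chr16:23890795-23891094, minus strand, the Crhbp window chr13:95444782-95445081, minus strand, and the Syn2 window chr6:115134652-115134951, plus strand.
Sst: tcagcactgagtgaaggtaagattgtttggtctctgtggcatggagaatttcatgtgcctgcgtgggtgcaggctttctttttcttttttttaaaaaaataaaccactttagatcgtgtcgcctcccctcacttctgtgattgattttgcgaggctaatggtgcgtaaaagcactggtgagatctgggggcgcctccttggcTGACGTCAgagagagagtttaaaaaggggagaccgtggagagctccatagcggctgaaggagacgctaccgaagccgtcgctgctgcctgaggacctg
Crhbp: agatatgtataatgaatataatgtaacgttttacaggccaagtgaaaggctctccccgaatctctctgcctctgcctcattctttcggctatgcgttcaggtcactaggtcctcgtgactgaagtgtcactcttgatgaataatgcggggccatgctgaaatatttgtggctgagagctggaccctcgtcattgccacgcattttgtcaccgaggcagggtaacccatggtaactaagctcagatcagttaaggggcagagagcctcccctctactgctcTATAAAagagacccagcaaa
Syn2: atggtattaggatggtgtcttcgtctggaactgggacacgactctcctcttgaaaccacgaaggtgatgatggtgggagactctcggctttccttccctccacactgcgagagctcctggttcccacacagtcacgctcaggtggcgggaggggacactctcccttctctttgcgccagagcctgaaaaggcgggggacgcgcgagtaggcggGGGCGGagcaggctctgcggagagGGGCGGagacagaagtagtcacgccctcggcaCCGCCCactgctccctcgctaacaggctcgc
The Sst window held the cyclic AMP response element, which reads the same on both strands, starting 48 bases before the start site. The Crhbp window held 1 TATA box letter match, starting at base 31 after the listed start. The Syn2 window held 3 GC boxes, starting 37 and 13 bases before the start site and, on the other strand, 20 bases after it. The matched motifs did not overlap each other. Of 32851 windows in the table, 1.79% held the cyclic AMP response element, 35.7% the GC box and 13.6% TATAAA.

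The nuclei carried the transcripts of the labelled class. In CPM, the UMIs of a gene scaled to a fixed total of UMIs over the Sst nuclei of a library, Sst itself averaged 1130 ± 224 CPM (SD, n = 6 libraries) against 49.8 CPM in the 830 Gad nuclei that passed the limit for Vip, Lamp5 or Adarb2, called nuclei with Vip, Lamp5 or Adarb2 below. That level follows from the rule, as do the Gad1 and Gad2 levels, and the other genes describe the nuclei so chosen without a test. Elfn1, a postsynaptic adhesion protein that sets the facilitating input of O-LM cells, stood at 163 ± 63.0 CPM against 40.8 CPM. Its levels were 270 and 199 CPM in HDACi-CFC, 115 and 99.7 CPM in Veh-CFC, 159 CPM in HDACi-Context and 137 CPM in the library labelled Veh-Context. Lhx6 stood at 47.0 ± 13.5 CPM against 17.9 CPM, and at 133 CPM in the 92 Gad nuclei with Lhx6 and no Sst UMI. Npy, which encodes neuropeptide Y, stood at 297 ± 81.4 CPM against 119 CPM. All 3 were above the Vip, Lamp5 or Adarb2 nuclei in each of the 6 libraries.

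Counted by nucleus, Lhx6 was detected in 35.3% of Sst nuclei, 13.3% of nuclei with Vip, Lamp5 or Adarb2 and 0.110% of oligodendrocyte nuclei. Elfn1 was detected in 58.7%, 19.8% and 0.921% of the same classes, and Npy in 54.8%, 38.6% and 8.51%. With each nucleus thinned to 5000 UMIs, which left 390 of the 414 Sst nuclei, Lhx6 was detected in 23.6% of Sst nuclei against 8.90% of nuclei with Vip, Lamp5 or Adarb2. The thinned shares were 47.4% against 13.3% for Elfn1 and 43.1% against 29.2% for Npy. Npy UMIs were thus also found in a class that should lack the gene, at a median depth of 1937 to 2502 UMIs a nucleus by library.

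**Figure D1:**
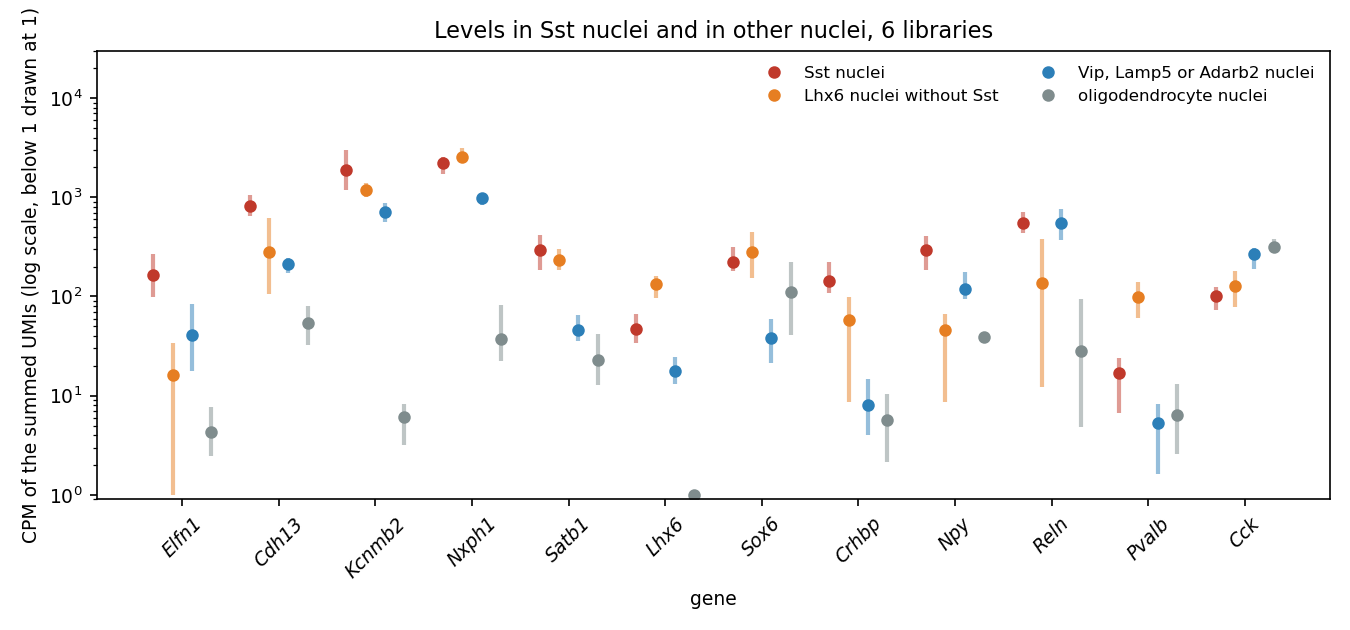
Level of 12 genes in CPM of the summed UMIs, on a log axis, in Sst nuclei, Gad nuclei with Lhx6 and no Sst UMI, nuclei with Vip, Lamp5 or Adarb2, and oligodendrocyte nuclei; points are means over 6 libraries and bars run from the lowest to the highest library. Elfn1, Cdh13, Kcnmb2 and Npy lie higher in Sst nuclei than in the other 3 classes, Lhx6 and Pvalb lie highest in the Lhx6 nuclei without Sst, and Cck lies lowest in Sst nuclei.

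Beyond the genes of the rule, the Sst nuclei stood apart from the Vip, Lamp5 or Adarb2 nuclei most in Crhbp, a secreted protein that binds corticotropin-releasing hormone. Crhbp was at 145 ± 44.5 CPM in Sst nuclei against 8.003 CPM, and after 5 CPM were added to each level it was at least 5.79 times higher in each of the 6 libraries. Among 2436 genes at 50 CPM or more, the genes next in this order were Lypd6b, with a lowest fold of 5.66, Olfm3, with 4.88, and Satb1, with 4.73. Satb1, a chromatin organiser that matures this lineage, stood at 295 ± 82.3 CPM against 46.2 CPM. Its partner in the lineage Sox6 stood at 224 ± 47.5 CPM against 38.2 CPM.

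Against all other nuclei, the order after Sst was Kcnmb2, Nxph1, Crhbp and Rab3b. Kcnmb2 encodes an inactivating beta subunit of the BK potassium channel and had a lowest fold of 14.4, and Nxph1, which encodes a secreted neurexin ligand, one of 13.3. Against the Vip, Lamp5 or Adarb2 nuclei Kcnmb2 was not among the first 40 genes, the last of which had a lowest fold of 2.2. Nxph1 does not separate the class from its own lineage: it averaged 2210 CPM in Sst nuclei and 2541 CPM in the Lhx6 nuclei without Sst. Cdh13, a cadherin anchored in the membrane by a lipid, averaged 826 ± 149.6 CPM in Sst nuclei, 283 CPM in the Lhx6 nuclei without Sst and 213 CPM in nuclei with Vip, Lamp5 or Adarb2. Pvalb, the calcium buffer of basket cells, was at 16.8 CPM in Sst nuclei and at 100 CPM in the Lhx6 nuclei without Sst.

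The other peptides divided by class. Cort, which encodes the somatostatin relative cortistatin, averaged 88.8 ± 44.2 CPM in Sst nuclei against 12.3 CPM in nuclei with Vip, Lamp5 or Adarb2, and Tac1, the substance P precursor, 68.7 ± 21.7 CPM against 10.6 CPM. Crossing the other way, Pnoc averaged 37.9 CPM against 65.4 CPM, Penk 3.23 CPM against 17.7 CPM and Cck 100 CPM against 269 CPM, each lower in Sst nuclei in 6 of 6 libraries. Nos1, which makes nitric oxide and marks long-range Sst cells together with Chodl, averaged 29.2 ± 20.4 CPM against 73.6 CPM. In HDACi-CFC replicate 2 a single nucleus held 39 of the 49 Nos1 UMIs, and in Veh-CFC replicate 1 a single nucleus held 8 of 11. Chodl itself reached 5.00 ± 5.27 CPM, was without a UMI in 2 of the 6 libraries and came from 1 nucleus in each of the other 4. Chrna2, the nicotinic subunit used to mark O-LM cells, gave 5 UMIs in all Sst nuclei together.

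Cort varied between the exposures. It stood at 92.2 and 112 CPM in HDACi-CFC, 104 and 145 CPM in Veh-CFC, 62.9 CPM in HDACi-Context and 16.9 CPM in the library labelled Veh-Context. The 4 CFC libraries were all above the 2 Context libraries. This difference was not tested, and exposure and preparation cannot be told apart if the Context pair was prepared apart.

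Reln, which encodes the extracellular glycoprotein reelin, divided the Sst nuclei among themselves. After thinning to 5000 UMIs, 236 of the 390 nuclei held a Reln UMI. Elfn1 was detected in 63.1% of the nuclei with Reln and 23.4% of those without, and was more frequent with Reln in 6 of 6 libraries. Cort and Tac1 lay on the other side: Cort was detected in 12.7% of the nuclei with Reln and 31.2% of those without, and Tac1 in 5.93% and 25.3%, less frequent with Reln in 6 of 6 libraries. Among the 53 nuclei with Tac1, 43.4% held Cort, against 16.3% of nuclei without Tac1. Npy did not divide in this way, at 45.3% with Reln and 39.6% without, and was more frequent with Reln in 3 of 6 libraries. Nuclei of 1 library are not replicates, so these shares describe the nuclei captured. As a level, Reln averaged 548 ± 104 CPM in Sst nuclei and 548 ± 142 CPM in nuclei with Vip, Lamp5 or Adarb2.

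**Figure D2:**
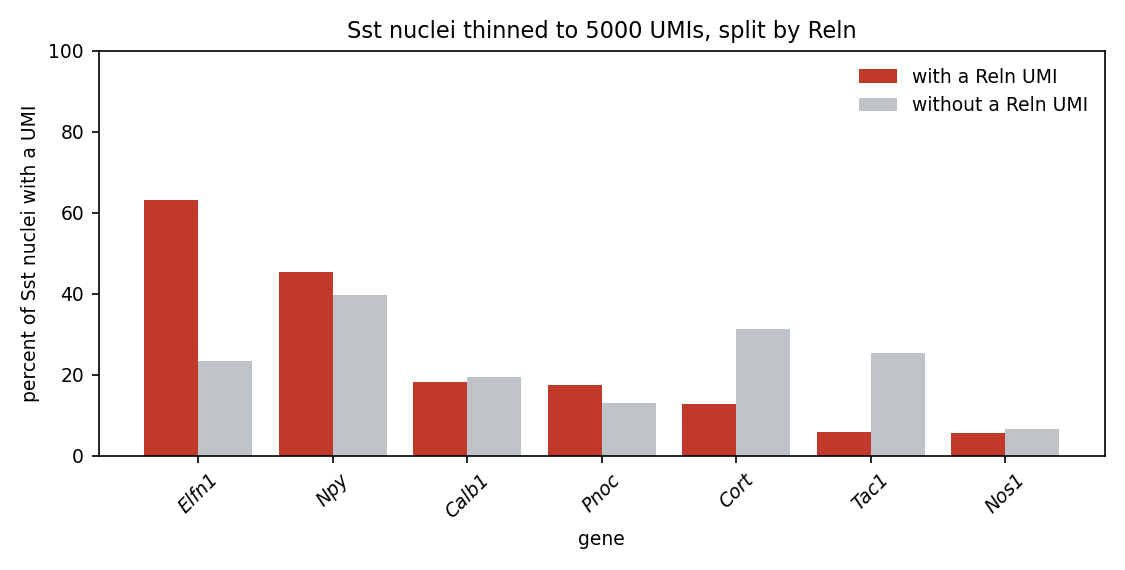
Percent of Sst nuclei with a UMI of each of 7 genes, in the 236 nuclei with and the 154 nuclei without a Reln UMI, all 6 libraries together, each nucleus thinned to 5000 UMIs. Elfn1 was more frequent with Reln (63.1% against 23.4%), and Cort and Tac1 without it (31.2% and 25.3%).

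Sst nuclei made up 1.47% (exact binomial 95% interval 1.11 to 1.91) and 1.31% (1.02 to 1.67) of the nuclei in the HDACi-CFC libraries, against 1.26% (0.934 to 1.67) and 1.37% (1.06 to 1.75) in the Veh-CFC libraries. The groups overlapped. In Context the share was 1.86% (1.52 to 2.26) in HDACi-Context and 1.56% (1.24 to 1.94) in the library labelled Veh-Context. The intervals cover counting error only, and with 2 libraries against 2 an exact two-sided permutation test cannot go below p = 0.333.

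HDACi against Veh after CFC was tested on the UMIs summed over the Sst nuclei of each library, with edgeR's quasi-likelihood test, trimmed mean (TMM) scaling and Benjamini-Hochberg adjustment at 0.05 over 8081 genes. In such sums a change in the makeup of the class and a change in RNA per nucleus cannot be told apart. HDACi raised 529 genes (6.55%) and lowered 237 (2.93%), together 9.48% of those tested. The calls favoured abundant genes: of the 623 genes whose log2 CPM averaged 8 or more, 243 were higher (39.0%) and 1 lower (0.161%), so the shares of the lists of abundant genes below are to be read beside that figure. The split between directions depended on the scaling. Scaled by library size alone, the median gene shifted by -0.32 on the log2 scale and 203 genes (2.51%) were higher and 770 (9.53%) lower, and no gene called under TMM turned to the other side. Scaling per nucleus keeps differences in sequencing depth and capture per nucleus as well as in RNA content, and does not separate them. It gave 80 higher (0.99%) and 880 lower (10.9%). It ended the calls of 57 genes on the lists or named below, mostly those with a log2 fold change near or under 1. DESeq2 called 161 genes higher (1.99%) and 2 lower (0.0247%). In the nuclei with at least 3 Sst UMIs 309 of 6604 genes were higher (4.68%) and 101 lower (1.53%). Levels in this comparison are CPM scaled by TMM within each pair of groups.

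Among genes with a mean of 6 or more in log2 CPM and libraries that do not overlap, the 10 top increases were in Ets1, Timp4, Eps8, Rgs8, Tbl1x, Slc1a2, Syn2, Camk2a, Fam49a and Rtkn2. Ets1 (chr9:32636221-32757820, mm10), a transcription factor, stood at 169 and 113 CPM in HDACi-CFC against 29.2 and 33.5 CPM in Veh-CFC, a log2 fold change of 2.11 ± 0.28 (SE; edgeR adjusted p = 0.000709). Both HDACi libraries lay above both Veh libraries, which the naming rule asks of all 10 genes and which 27.2% of all genes tested showed. The reverse held in 29.2%. Eps8, which caps actin filaments, stood at 181 and 130 CPM against 43.8 and 33.5 CPM (log2 2.01), and Rgs8, a regulator of G-protein signalling, at 108 and 92.4 CPM against 20.9 and 29.5 CPM (log2 1.93). Tbl1x, part of the corepressor complex in which NCoR and HDAC3 work, stood at 260 and 198 CPM in HDACi-CFC against 68.9 and 56.3 CPM in Veh-CFC, a log2 fold change of 1.87 ± 0.23 (edgeR adjusted p = 0.000483). Camk2a, the alpha subunit of the calcium and calmodulin kinase II and best known from excitatory neurons, was raised by 1.62, Fam49a by 1.62 and Rtkn2 by 1.53 on the log2 scale. The Rtkn2 call was lost with DESeq2 (adjusted p = 0.105) and without HDACi-CFC replicate 2 (edgeR adjusted p = 0.107).

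Syn2 (chr6:115134902-115282006, mm10), the synaptic vesicle protein synapsin II whose promoter is shown above, stood at 1302 and 1467 CPM in HDACi-CFC against 467 and 402 CPM in Veh-CFC. The 3.20-fold difference was a log2 fold change of 1.68 ± 0.16 (edgeR adjusted p = 9.64e-05). Timp4, an inhibitor of metalloproteinases, was raised by 2.04 ± 0.27, from the opposite strand within Syn2 (chr6:115241892-115252205). Whether the counting used strand is not stated, so the reads of the 2 genes may not be separate.

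Slc1a2, the glial glutamate transporter GLT-1, is also on the list of astrocyte markers. It stood at 94.0 and 144 CPM in HDACi-CFC against 43.8 and 29.5 CPM in Veh-CFC (log2 1.78, edgeR adjusted p = 0.00238), and 1 nucleus held 53 of its 89 UMIs in HDACi-CFC replicate 2. The call was lost when at least 3 Sst UMIs were required (edgeR adjusted p = 0.178). The 10 astrocyte markers together, Slc1a2 among them, stood at 241 and 288 CPM in HDACi-CFC Sst nuclei, 131 and 101.1 CPM in Veh-CFC, 138 CPM in HDACi-Context and 514 CPM in the library labelled Veh-Context, as plain CPM. Of these, 4 were tested and 3 called higher, where edgeR called 6.55% of all genes tested higher and 2.93% lower. The defining marker Aqp4 had no UMI in either Veh-CFC library and 3 UMIs in each HDACi-CFC library, all 3 of replicate 1 in 1 nucleus. In the library labelled Veh-Context single nuclei held much of the sum, with 141 of 211 Slc1a2 UMIs and 42 of 44 Aqp4 UMIs in 1 nucleus for each gene. The part of astrocyte RNA in this result was not tested. Oligodendrocyte markers summed to 134 CPM in both HDACi-CFC libraries against 160 and 257 CPM in Veh-CFC, with 0 of 6 tested called by edgeR or DESeq2 (1 at an unadjusted edgeR p under 0.05). Microglial markers summed to 189 and 140 CPM against 162 and 157 CPM, with 0 of 3 called by either (0 at an unadjusted p under 0.05).

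Some markers of excitatory neurons were also higher with HDACi in the Sst nuclei. The 9 granule cell markers summed to 1178 and 1230 CPM in HDACi-CFC against 1052 and 831 CPM in Veh-CFC, and 2 of 6 tested were called higher, Trpc6 (log2 0.81) and Maml2 (log2 1.59). Trpc6, which is part of that sum, was also among the genes that set the Sst nuclei apart from other interneurons. It averaged 464 CPM over the 6 libraries against 115 CPM in nuclei with Vip, Lamp5 or Adarb2. In all nuclei outside the Sst class these markers stood at 3046 and 3175 CPM against 2141 and 2390 CPM. The 10 pyramidal cell markers summed to 287 and 235 CPM against 188 and 209 CPM, with 1 of 4 tested called higher, Mpped1. The defining marker Slc17a7, the vesicular glutamate transporter of these cells, stood at 45.8 and 45.4 CPM against 29.2 and 30.8 CPM (log2 0.59, edgeR adjusted p = 0.267). The median log2 fold change was 0.72 over the 6 granule markers tested and 0.83 over the 4 pyramidal ones. The part of excitatory neuron RNA in the rises of Camk2a, Syn2 and the glutamate receptor genes was not tested. Markers of Vip or Cnr1 cells stood at 1528 and 1306 CPM against 1079 and 847 CPM, with 1 of 4 tested called higher, and 1 of 5 Lamp5 cell markers and 2 of 4 Pvalb cell markers were called higher. All these counts lie beside 6.55% of all genes tested and 39.0% of abundant genes called higher. The median log2 CPM of the markers tested ran from 4.99 in the pyramidal list to 8.78 in the Pvalb list.

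The decreases named by the same rule included Odf2, a protein of the centriole. It stood at 50.6 and 61.6 CPM in HDACi-CFC against 175 and 142 CPM in Veh-CFC, a log2 fold change of -1.46 ± 0.24 (edgeR adjusted p = 0.00231). DESeq2 also called it lower, with adjusted p = 0.015. They further included Dhdds, Acer3, Plaa, Prkacb, Rundc3b, Dnajc1, Rad17 and Trim37, which edgeR called at log2 fold changes between -1.39 and -1.10 and DESeq2 did not call, at adjusted p between 0.0546 and 0.335.

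**Figure D3:**
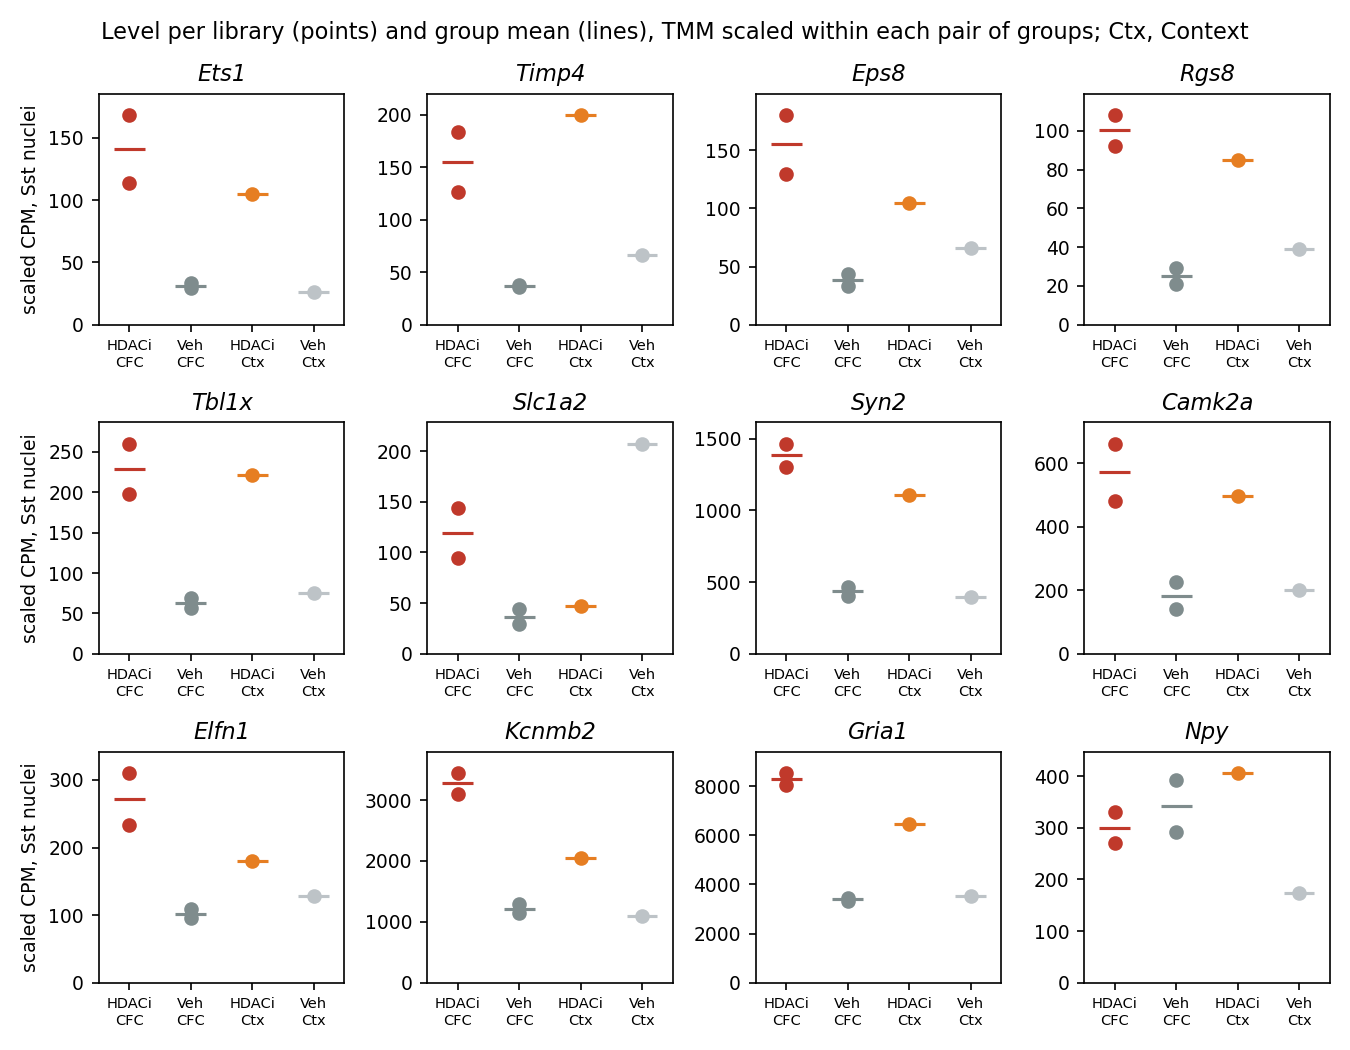
TMM-scaled CPM of 12 genes in the Sst nuclei of each library: 2 HDACi-CFC, 2 Veh-CFC, 1 HDACi-Context (Ctx) and 1 library labelled Veh-Context; points are libraries, lines are group means, and the scaling was done within each exposure. Both HDACi-CFC points lie above both Veh-CFC points in each panel except Npy, and in Slc1a2 the library labelled Veh-Context lies highest, at 207 CPM.

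Among the genes of Sst identity, 7 of the 21 tested rose with HDACi and none fell (33.3%), out of 29 on the list. Of all genes tested 6.55% rose, and of abundant genes 39.0%, and the median log2 CPM of the list was 7.94. Elfn1 (chr5:139907943-139974722, mm10) moved most, at 311 and 233 CPM in HDACi-CFC against 108 and 95.2 CPM in Veh-CFC. Its 2.66-fold difference was a log2 fold change of 1.41 ± 0.21 (edgeR adjusted p = 0.00127). Reln stood at 824 and 723 CPM against 413 and 459 CPM (log2 0.82 ± 0.16, edgeR adjusted p = 0.00561). Cacna2d3, a calcium channel subunit, was raised by 0.79 and Trps1, a zinc-finger repressor, by 1.30. These 4 were also called under library-size scaling and by DESeq2. Scaling per nucleus called Elfn1 and Trps1 but not Reln (edgeR adjusted p = 0.303) or Cacna2d3 (0.324). The Trps1 call was lost when at least 3 Sst UMIs were required (log2 0.45, edgeR adjusted p = 0.552), and 1 nucleus held 62 of its 165 UMIs in HDACi-CFC replicate 1. Nxph1, Cdh13 and Rab3b were raised by 0.64, 0.65 and 0.59, and were called neither under library-size scaling nor by DESeq2. The median of the 21 was 0.59, and 0.29 under library-size scaling, beside -0.01 and -0.32 for all genes tested.

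The 14 identity genes without a call included the lineage factors. Lhx6 stood at 77.1 and 53.5 CPM in HDACi-CFC against 35.5 and 32.2 CPM in Veh-CFC, without overlap (log2 0.92, edgeR adjusted p = 0.0793). Satb1 had a log2 fold change of -0.22 and Crhbp one of -0.36, with 125 and 157 CPM in HDACi-CFC against 211 and 161 CPM in Veh-CFC.

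Among the peptides no difference was called. Of 22 neuropeptide genes 8 could be tested, and 0 were called by edgeR or DESeq2 and 0 had an unadjusted edgeR p under 0.05. Over all genes tested edgeR called 9.48%. Under library-size scaling 1 was called lower. Npy stood at 270 and 331 CPM in HDACi-CFC against 292 and 391.5 CPM in Veh-CFC, with overlapping groups (log2 -0.19 ± 0.19, edgeR adjusted p = 0.559). Cort stood at 106 and 131 CPM against 98.1 and 138 CPM (edgeR adjusted p = 0.997), and Tac1 at 106 and 55.1 CPM against 75.1 and 76.4 CPM (edgeR adjusted p = 0.971). Vgf, a secreted granule protein, had a log2 fold change of -0.32 and Scg2, another, one of -0.38, both without a call. The median of the 8 was -0.10.

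For the machinery that makes and releases peptides, 5 of 19 genes tested were higher (26.3%) and none lower. That share lies beside 6.55% of all genes tested and 39.0% of abundant genes, and the median log2 CPM of the list was 7.56. Pam, the enzyme that amidates peptides such as neuropeptide Y, stood at 2022 and 2116 CPM in HDACi-CFC against 1189 and 1227 CPM in Veh-CFC (log2 0.78 ± 0.14, edgeR adjusted p = 0.00371). Cadps, which primes dense-core vesicles, was raised by 0.76 (1675 and 1733 CPM against 993 and 1015 CPM), Ptprn2 by 0.64, Rab3c by 0.62, and Rab3b as above. Under library-size scaling 2 of the 19 were called higher and 2 lower, DESeq2 called 2 higher, and under scaling per nucleus 0 were higher and 1 lower. Of 24 peptide receptor genes 4 were tested, and 0 were called by edgeR or DESeq2, while 2 had an unadjusted edgeR p under 0.05.

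Of the genes for GABA synthesis and transport, without Gad1 and Gad2 that the membership rule used, 2 of the 12 tested rose (16.7%). Of all genes tested 6.55% rose, and under scaling per nucleus 0 of the 12 did. Abat, which breaks GABA down, was raised by 0.84 (205 and 256 CPM in HDACi-CFC against 96.0 and 157 CPM in Veh-CFC), a call lost with DESeq2 (adjusted p = 0.254) and with at least 3 Sst UMIs (edgeR adjusted p = 0.197). Slc32a1, the vesicular GABA transporter, had a log2 fold change of -0.04.

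Of 39 potassium channel genes tested 9 rose and none fell (23.1%), out of 55 listed. That share lies beside 6.55% of all genes tested and 39.0% of abundant genes, and the median log2 CPM of the list was 7.02. Kcnmb2 (chr3:31902507-32200180, mm10), the BK subunit that ranked high against all other nuclei but not against other interneurons, stood at 3451 and 3093 CPM in HDACi-CFC against 1294 and 1140 CPM in Veh-CFC. Its 2.69-fold difference was a log2 fold change of 1.43 ± 0.14 (edgeR adjusted p = 9.99e-05). Kcns3, a modulatory Kv subunit, stood at 217 and 245 CPM against 91.8 and 83.1 CPM (log2 1.41), and Kcna6 at 86.8 and 82.7 CPM against 33.4 and 30.8 CPM (log2 1.40, not called by DESeq2). Kcnd3, an A-type channel, was raised by 1.09, Kcnc1, the fast delayed rectifier Kv3.1, by 0.93, and Kcnq3, a subunit of the M-current, by 0.99. Kcnq5 and Kcnma1 were raised by 0.69 and 0.65 and were called neither under library-size scaling nor by DESeq2, and 1 nucleus held 98 of the 357 Kcnq5 UMIs in HDACi-CFC replicate 2. Library-size scaling gave 6 of the 39 higher and 1 lower, and the median of 0.52 became 0.21. Scaling per nucleus gave 3 higher and 1 lower, DESeq2 5 higher and at least 3 Sst UMIs 6 higher.

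Of 18 HCN and sodium channel genes tested 3 rose (16.7%), beside 6.55% of all genes tested and 39.0% of abundant genes. Library-size scaling called 1, scaling per nucleus 0 and DESeq2 2. Fgf12, an intracellular partner of sodium channels, stood at 3524 and 3618 CPM in HDACi-CFC against 2235 and 2176 CPM in Veh-CFC (log2 0.70 ± 0.13, edgeR adjusted p = 0.00488). Its relative Fgf13 was raised by 0.78, and the Fgf13 call was lost with at least 3 Sst UMIs, where the log2 fold change was 0.04. In HDACi-CFC 1 nucleus held 47 of 167 Fgf13 UMIs in replicate 1 and 125 of 277 in replicate 2, against 18 of 104 and 28 of 207 in Veh-CFC. The median of the 18 was 0.31, and 8.41e-05 under library-size scaling.

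Of 20 calcium channel genes tested 9 rose and none fell, beside 39.0% of abundant genes. Itpr1, the calcium release channel of internal stores, stood at 128 and 157 CPM in HDACi-CFC against 62.6 and 68.4 CPM in Veh-CFC (log2 1.12), and Cacng3, an AMPA receptor partner of the same gene family, at 253 and 271 CPM against 127 and 127 CPM (log2 1.04). Cacna1a, the P/Q-type channel of release sites, was raised by 0.78 (1677 and 1615 CPM against 935 and 976 CPM). The other 6 were Cacna2d1, Cacna2d2, Cacna2d3, Cacng2, Cacnb4 and Cacna1c. Scaling per nucleus called 0 of the 20, and the median of 0.53 became 0.15. Library-size scaling called 4, DESeq2 3 (Cacna1a, Cacng3 and Cacna2d3), and at least 3 Sst UMIs 4.

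Glutamate receptor genes held 9 calls among 21 tested, all higher (42.9%), with a median log2 CPM of 9.80. Of all genes tested 6.55% rose, and of abundant genes 39.0%, so the share of this list was near that of abundant genes. Gria1 (chr11:57011387-57330244, mm10), an AMPA receptor subunit, stood at 8033 and 8548 CPM in HDACi-CFC against 3453 and 3331 CPM in Veh-CFC (log2 1.29 ± 0.12, edgeR adjusted p = 9.99e-05). Grik3, a kainate receptor subunit, was raised by 1.39, and the NMDA receptor subunits Grin2a and Grin2b by 1.06 and 0.89. These 4 were also the calls of DESeq2 in this list, and scaling per nucleus called Gria1 and Grik3 alone. Of 18 GABA and acetylcholine receptor genes, with a median log2 CPM of 7.40, 3 rose (16.7%), beside the same 6.55% and 39.0%. The nicotinic subunit Chrna7 led them, at 236 and 214 CPM against 96.0 and 85.8 CPM (log2 1.31).

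Of 29 presynaptic genes 6 rose (20.7%), beside 6.55% of all genes tested and 39.0% of abundant genes. Besides Syn2 these were the vesicle calcium sensor Syt1, at 5474 and 5329 CPM in HDACi-CFC against 2861 and 2919 CPM in Veh-CFC (log2 0.90), the fusion protein Snap25 (0.84), Syn1 (0.79) and the active zone proteins Erc2 and Pclo. Library-size scaling called 3 of the 29, DESeq2 4, and scaling per nucleus Syn2 alone. The list of synaptic adhesion and scaffold proteins had 39 genes tested, of which 12 were higher (30.8%) and none lower. Dlgap1, a postsynaptic scaffold, stood at 7694 and 7708 CPM against 3860 and 4053 CPM (log2 0.96), and Epha4, an ephrin receptor, at 188 and 126 CPM against 68.9 and 72.4 CPM (log2 1.12), which DESeq2 did not call. Library-size scaling called 4 of the 39, DESeq2 3 and scaling per nucleus 1.

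**Figure D4:**
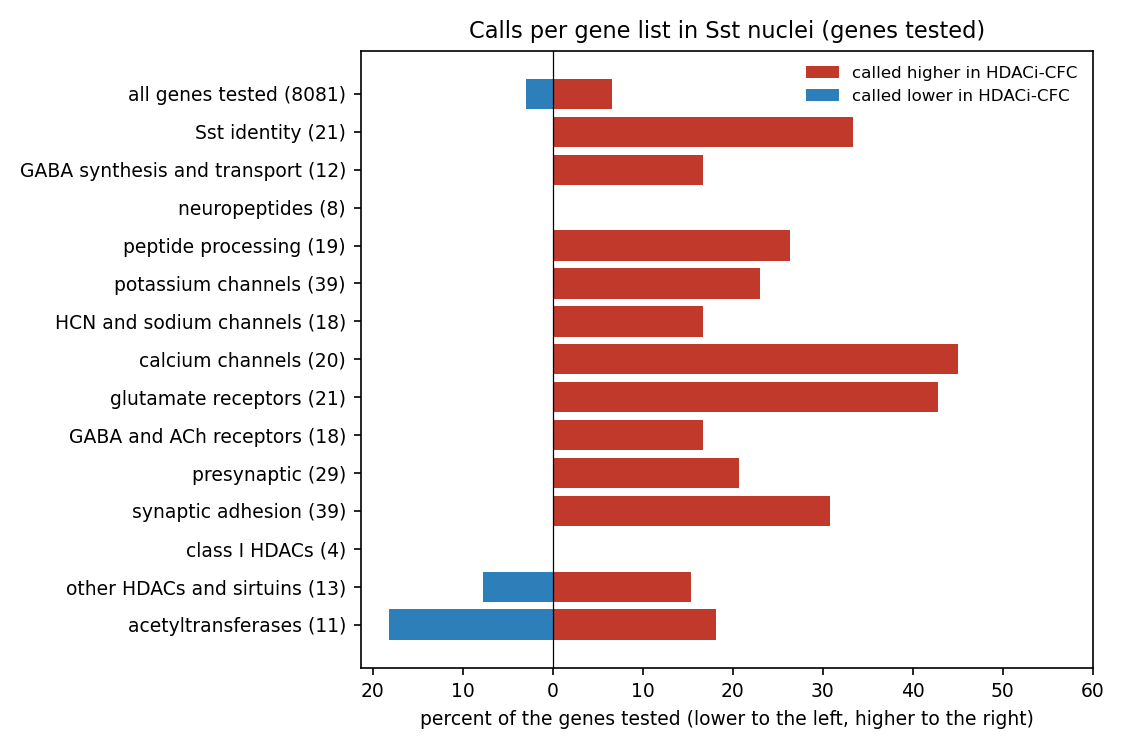
Percent of the genes tested in each list that edgeR called lower (to the left) or higher (to the right) in HDACi-CFC against Veh-CFC Sst nuclei, with the number tested in brackets. All genes tested stand at 6.55% higher and 2.93% lower. Genes with a mean log2 CPM of 8 or more, not drawn, stand at 39.0% higher. Calcium channels (9 of 20) and glutamate receptors (9 of 21) reach furthest and are to be read beside that 39.0%. Under scaling per nucleus 0 and 2 of them were called. The neuropeptides (8 tested) and the class I deacetylases (4 tested) have no call, where 9.48% of all genes tested were called.

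Of the 4 class I deacetylases, the family that CI-994 inhibits, 0 were called by edgeR or DESeq2 and 0 had an unadjusted edgeR p under 0.05. Over all genes tested edgeR called 6.55% higher and 2.93% lower, so 0 of 4 says little about the family. The counts of the 2 lists that follow are to be read beside the same shares. The log2 fold changes were 0.26 for Hdac1 (edgeR adjusted p = 0.686), -0.59 for Hdac2 (0.337), 0.25 for Hdac3 (0.470) and 0.03 for Hdac8 (0.954), and those of Hdac1, Hdac3 and Hdac8 turned negative under library-size scaling. Of 13 other deacetylases and sirtuins, Hdac4 and Hdac5, which belong to class IIa, were higher. Hdac4 stood at 318 and 280 CPM in HDACi-CFC against 129 and 135 CPM in Veh-CFC (log2 1.17), and Hdac5 at 74.7 and 76.2 CPM against 35.5 and 30.8 CPM (log2 1.20), a call that neither DESeq2 nor library-size scaling gave. Sirt1 was the 1 called lower (2.41 and 4.86 CPM against 20.9 and 17.4 CPM, edgeR adjusted p = 0.0266), and DESeq2 did not call it (adjusted p = 0.465). Of 11 acetyltransferase genes Ncoa1 and Ncoa2 were higher, and Ep300 (log2 -0.81) and Kat6b (log2 -0.84) lower, with Ep300 at 98.8 and 69.7 CPM against 140 and 149 CPM. DESeq2 called none of these 4.

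Activity genes gave little to test at this depth. Of 24 immediate early genes 2 passed the filter on low counts, with 0 called by edgeR or DESeq2 and 0 at an unadjusted edgeR p under 0.05. Nr4a1, a nuclear receptor of this set, had a log2 fold change of 0.55 (edgeR adjusted p = 0.344). Of 24 late activity genes 15 were tested, and Nptx1, a neuronal pentraxin of excitatory synapses, was higher, at 28.9 and 38.9 CPM in HDACi-CFC against 8.35 and 13.4 CPM in Veh-CFC (log2 1.59, edgeR adjusted p = 0.0336). The call was lost with DESeq2 and under library-size scaling. It was the 1 call of the 15, beside 6.55% of all genes tested called higher. Homer1 had a log2 fold change of 0.58 (edgeR adjusted p = 0.114).

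In the Context pair, with 1 library a side, there was no test, and ratios carry counting intervals at 95% that leave out variation between mice. Of 9933 genes with at least 20 UMIs over the pair, 496 were at least 2-fold higher in HDACi-Context (4.99%) and 746 at least 2-fold lower (7.51%), and under library-size scaling 244 and 1431. A ratio above 1 was found in 49.5%. Of the 529 genes called higher in CFC, 527 were measured, and 498 (94.5%) had a ratio above 1 in Context, beside 51.2% of the 7924 genes measured in both. Of those 527, 109 passed 2-fold in the same direction and 8 in the opposite one. Of the 237 called lower, 226 were measured and 213 (94.2%) had a ratio below 1, beside 48.8%. The 51.2% and 48.8% cover genes of all levels, whereas the calls higher favoured abundant genes. No share among genes of like abundance was computed. The CFC and Context pairs share no library.

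Syn2 stood at 1110 CPM in HDACi-Context against 394 CPM in the library labelled Veh-Context, a log2 ratio of 1.49 (1.33 to 1.66), and Kcnmb2 at 2055 against 1102 CPM (0.90, 0.80 to 1.00). Elfn1 stood at 180 against 128 CPM, a ratio of 0.50 (0.17 to 0.83). Of 8 neuropeptide genes measured here, none of them called after CFC, 3 were at least 2-fold higher in HDACi-Context and 1 at least 2-fold lower. The 3 were Cort, at 71.3 against 15.7 CPM (log2 ratio 2.18, 1.39 to 3.05), Npy, at 407 against 174 CPM (1.23, 0.97 to 1.48), and Tac1, at 86.6 against 34.4 CPM (1.33, 0.76 to 1.93). Fgf13 stood at 908 against 268 CPM, but 1 nucleus held 504 of its 1007 UMIs in HDACi-Context, against 26 of 273 in the library labelled Veh-Context. Whether the effect of HDACi differs between the exposures was not tested, as each Context group is 1 library.

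**Figure D5:**
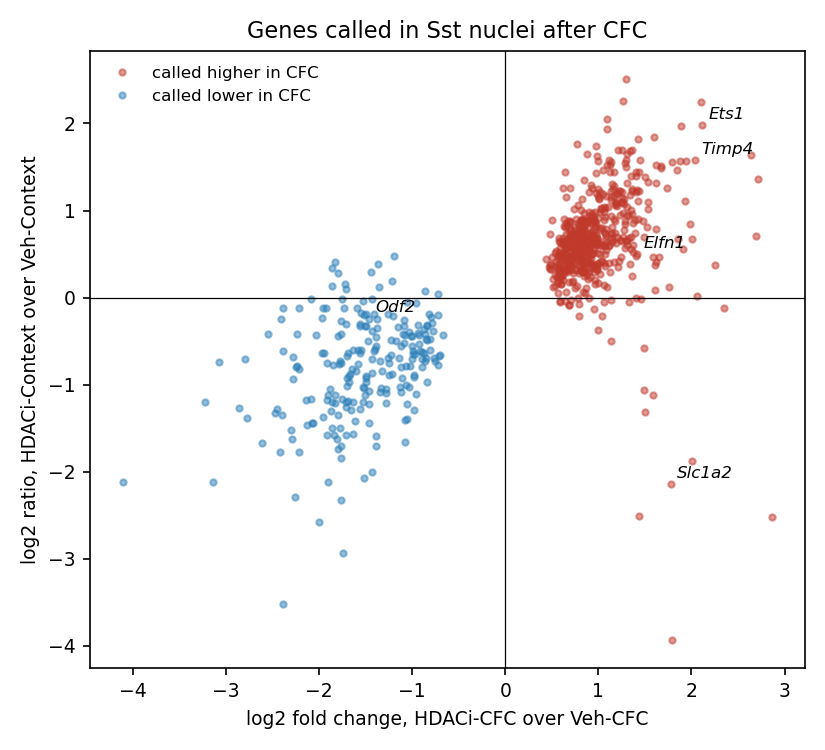
Log2 ratio of HDACi-Context over the library labelled Veh-Context (vertical) against the log2 fold change of HDACi-CFC over Veh-CFC (horizontal), for the genes called in Sst nuclei after CFC and measured in Context. Of the genes called higher 498 of 527 lie above the horizontal line and of those called lower 213 of 226 lie below it, with Slc1a2 at -2.14 in Context.

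Differences in the response to HDACi between Sst nuclei and other interneurons were tested as an interaction of drug and class (edgeR). Against the Lhx6 nuclei without Sst, 2 of 7065 genes (0.0283%) were called, from 11 to 22 such nuclei in a CFC library. Synpr, a synaptic vesicle protein, stood at 1283 and 1039 CPM in HDACi-CFC against 817 and 657 CPM in Veh-CFC Sst nuclei, and at 28.9 and 18.2 CPM against 172 and 114 CPM in Lhx6 nuclei, as plain CPM. The difference of the log2 fold changes was 3.24 ± 0.52 (edgeR adjusted p = 0.0277). Ncam2, an adhesion molecule, stood at 690 and 744 CPM against 589 and 757 CPM in Sst nuclei and at 123 and 81.7 CPM against 636 and 627 CPM in Lhx6 nuclei (difference 2.73 ± 0.38, edgeR adjusted p = 0.00895). In both genes the low values after CFC were those of the Lhx6 nuclei with HDACi. In Context, Synpr in Lhx6 nuclei stood at 43.7 CPM in HDACi-Context against 42.4 CPM in the library labelled Veh-Context. Ncam2 stood there at 180 against 460 CPM.

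Against the nuclei with Vip, Lamp5 or Adarb2, 4 of 10156 genes (0.0394%) were called, in a comparison added after the data were seen. Olfm3, a secreted olfactomedin that was among the genes that set the class apart, stood at 753 and 731 CPM in HDACi-CFC against 326 and 390 CPM in Veh-CFC Sst nuclei, and at 55.4 and 33.3 CPM against 47.1 and 76.0 CPM in the other nuclei (difference 1.69, edgeR adjusted p = 0.0294). Magi3, a scaffold, stood at 39.8 and 33.2 CPM against 99.7 and 89.9 CPM in Sst nuclei and at 231 and 203 CPM against 159 and 151 CPM in the others (difference -1.75). Efna5, an ephrin, and Ghr, the growth hormone receptor, had differences of 1.54 and 1.68. In Context, Olfm3 in Sst nuclei was not higher with HDACi, at 502 CPM in HDACi-Context against 633 CPM in the library labelled Veh-Context. All 4 calls were lost without HDACi-CFC replicate 2, at edgeR adjusted p between 0.219 and 0.702. For the genes named above no difference was called: that of Kcnmb2 was 0.87 (edgeR adjusted p = 0.243), with log2 fold changes of 1.43 in Sst nuclei and 0.64 in the others, and that of Elfn1 was 0.05 (adjusted p = 0.994), with 1.41 and 1.45.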

How the data were processed

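Nuclei of 6 libraries of pooled hippocampal tissue were sequenced with 10x 3′ chemistry. The authors deposited raw UMI counts per gene and barcode, which Cell Ranger produced, version 3.0.1 for CFC and 3.0.2 for Context per the file headers. The submitters' processing notes name mm10, Cell Ranger 3.0.1 and Seurat 4.0.3. Whether intronic reads or strand were used in counting is not given in the sources used here. The protocol text speaks of a pool smaller than the 6 libraries, so the Context pair may have been prepared apart.

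Of 30323 barcodes, 27766 passed filters of 500 or more genes and no more than 5% mitochondrial UMIs. The membership rule was then applied, and UMIs were summed per library and class. No doublets were removed, and Scrublet, as an alternative, marked 10 Sst nuclei (1.98% to 4.54% of all nuclei by library). Oligodendrocyte nuclei were chosen by at least 5 UMIs of myelin genes together. Some genes are not reported here. The main test was edgeR 4.0.16 (R 4.3.3) with filterByExpr, TMM factors, the quasi-likelihood test and Benjamini-Hochberg adjustment, on the 4 CFC libraries. TMM factors were 0.907 and 0.891 in HDACi-CFC and 1.12 and 1.11 in Veh-CFC. DESeq2 1.42.0 was an alternative. On simulated counts for 7679 genes the edgeR test recovered 47 of 100 genes changed 2-fold and 93 of 100 changed 4-fold, with 5 false calls. The simulation gave every gene the same dispersion and as many increases as decreases, so it does not measure the error rate of the real calls. Coordinates come from GENCODE M21, which matched 30934 of 31053 gene IDs, and promoters from RefSeq.

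The labels describe separate pools of mice, so p-values measure the spread between pools. Genes named were members of the lists, or the 10 highest and 10 lowest fold changes among called genes averaging 6 or more in log2 CPM, with libraries that did not overlap, leaving out unnamed gene models. Members, lists and tests were chosen with earlier results of these data known. Intervals for single libraries are exact binomial ones. Alternatives were other scalings and tools, other filters, at least 3 Sst UMIs, at least 1000 genes, doublets removed, all 6 libraries, a replicate block and each library left out.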

Additional observations from a re-analysis of the deposited data

Results flagged for a closer look

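In 6 genes the response to HDACi after CFC differed between Sst nuclei and another interneuron class by a test of that difference. Against Lhx6 nuclei without Sst the difference of the log2 fold changes was 3.24 for Synpr, from 3.10 to 3.41 with each library left out, and 2.73 for Ncam2, from 2.44 to 3.08. The Lhx6 sums behind Synpr held 4 and 2 UMIs in HDACi-CFC and 20 and 30 UMIs in Veh-CFC. Against nuclei with Vip, Lamp5 or Adarb2 it was -1.75 for Magi3, 1.69 for Olfm3, 1.68 for Ghr and 1.54 for Efna5. These 4 calls were lost without HDACi-CFC replicate 2, at edgeR adjusted p between 0.219 and 0.702, and that of Magi3 also without HDACi-CFC replicate 1 (0.0706). Efna5 moved mainly in the other nuclei, at 61.1 and 62.3 CPM in HDACi-CFC against 194 and 216 CPM in Veh-CFC. Ghr moved in the other nuclei too, at 73.5 and 39.9 CPM in HDACi-CFC against 129.9 and 123 CPM in Veh-CFC, beside 216 and 159 CPM against 151 and 142 CPM in Sst nuclei. The plain CPM that follow are HDACi-Context against the library labelled Veh-Context. In Sst nuclei neither Olfm3 (502 against 633) nor Ghr (128 against 166) was higher with HDACi, and Magi3 was lower (64.5 against 93.7). In the other nuclei Efna5 stood at 60.5 against 154 and Ghr at 73.4 against 136. In Lhx6 nuclei Ncam2 stood at 180 against 460 and Synpr at 43.7 against 42.4.

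Slc1a2 went opposite ways in the exposures, higher with HDACi in each CFC library and at a log2 ratio of -2.14 (counting interval -2.61 to -1.70) in Context, and the difference was not tested. In the library labelled Veh-Context 1 nucleus held 141 of its 211 UMIs.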

How the results depend on the processing

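Of the 529 genes higher and 237 lower with HDACi after CFC, library-size scaling gave 203 and 770, scaling per nucleus 80 and 880, DESeq2 161 and 2, the replicate block 873 and 444, all 6 libraries 1004 and 510, and at least 3 Sst UMIs 309 and 101. Leaving out 1 library gave 462 to 539 higher and 123 to 180 lower, the fewest lower without Veh-CFC replicate 2, each time on the assumption that the lone library of a group varies like the pair. No filter on low counts, doublets removed and at least 1000 genes kept the counts within 1.5 times, and no gene called in one direction was called in the other under any setting here. The replicate numbers are only shared numbers: the deviations of same-numbered libraries correlated at 0.0559 over 8081 genes, and all 529 and 237 calls were among those of the block. The call was lost for 50 named genes with DESeq2, 57 with scaling per nucleus, 38 with library-size scaling, 29 with at least 3 Sst UMIs and 12 to 24 without 1 library.

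The Lhx6 comparison (2 higher, 0 lower) gave 2 to 20 higher and 0 to 12 lower without 1 library, and 2 lower with at least 3 Sst UMIs. That with Vip, Lamp5 or Adarb2 nuclei (3 and 1), added after seeing the data, gave 1 to 33 and 0 to 5. Context with library-size scaling gave 244 and 1431. With at least 3 Sst UMIs the shares were 0.962% and 0.961% in HDACi-CFC, 0.816% and 0.923% in Veh-CFC, 1.33% in HDACi-Context and 1.16% in the library labelled Veh-Context. Thinning gave 1.69% and 1.15% in HDACi-CFC, 1.21% and 0.908% in Veh-CFC, 1.65% in HDACi-Context and 1.21% in the library labelled Veh-Context.

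Log2 fold changes that changed sign were all of uncalled genes. Npy (-0.19) was 0.0506 without Veh-CFC replicate 2 (-0.35 to 0.0506 without each library), 0.34 with 6 libraries and 0.0290 with at least 1000 genes. Cort (-0.00319) was 0.0139 with DESeq2, 0.0175 with no filter, -0.18 to 0.29 without each library, 0.00131 with the block, 0.57 with 6 libraries and 0.0546 with at least 1000 genes. Tac1 (0.02) was -0.28 and -0.35 under library-size and per-nucleus scaling, -0.43 to 0.49 without each library and -0.00191 with the block. Slc32a1 (-0.04) was -0.13 to 0.10 without each library, 0.18 with 6 libraries and 0.00895 without doublets. Under library-size and per-nucleus scaling Hdac1 was -0.0455 and -0.11, Hdac3 -0.0622 and -0.12, and Hdac8 -0.28 and -0.35. Hdac1 was also -0.16 to 0.69 without each library and -0.14 with 6 libraries, and Hdac8 -0.0439 to 0.15 without each library and -0.12 with at least 3 Sst UMIs. The cause of these changes was not tested.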

Other observations

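Of the promoter windows of genes tested after CFC, 3.32% held the cyclic AMP response element TGACGTCA, 62.4% the GC box GGGCGG and 6.84% TATAAA. Of the windows of genes called higher in Sst nuclei the shares were 3.21%, 52.2% and 10.9%, and of genes called lower 1.84%, 62.2% and 6.91%. A gene can have several windows, and these shares are a description without a test.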
